A study of Mus musculus with 12 samples.

Results

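Complement is a set of plasma and cell-surface proteins, and 9 of its genes were followed here in cultures of bone marrow mesenchymal stem cells (MSCs) with and without Chd7. The genes were C1ra, C1s1 and C4b (initiation), C3, Cfb and Cfd (central component and alternative pathway), Serping1 (inhibitor), and C3ar1 and C5ar1 (receptors). They were chosen by name: the Ensembl identifiers of the expression table were matched to mouse gene symbols, and all 9 were found among the 54532 identifiers. Of the 9, 6 reached the level at which a gene was tested, at least 1 FPKM (fragments scaled to transcript length and library depth) in at least 3 libraries, and C4b, Cfb and Cfd did not.

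All cells came from marrow flushed out of the long bones of mice of C57BL6/J background aged 4 weeks and were used at passage 3. Control cells (labelled WT) carried the floxed alleles without Cre, Chd7fl/fl, and the Chd7-deficient cells (labelled Chd7 KO) came from Prx1-cre;Chd7fl/fl mice, in which Cre is driven by a promoter active in early limb mesenchyme. Both kinds of cells were kept for 5 days in osteogenic medium or in adipogenic medium. The osteogenic medium held β-glycerophosphate at 10 mM, dexamethasone at 10 nM and ascorbic acid at 50 µM, and the adipogenic medium held isobutylmethylxanthine at 0.5 µM, dexamethasone at 1 µM and insulin at 10 µg/ml. This gave 4 groups of 3 RNA-seq libraries. The labels do not say whether the 3 libraries of a group came from separate mice, so the p-values measure the spread between these libraries, which may be technical.

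Complement is started by recognition molecules that switch on serine proteases. In the classical pathway C1q carries the proteases encoded by C1ra and C1s1, which cleave C4 and C2, and all pathways meet at the cleavage of C3. The fragments C3a and C5a are sensed by the receptors encoded by C3ar1 and C5ar1, which are well known on myeloid cells. Liver is the main source of the plasma proteins, but macrophages, fibroblasts and adipocytes also make several of them. Factor D, encoded by Cfd, was described in fat cells under the name adipsin.

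The 12 libraries held 17496224 to 21099495 fragments on genes. Replicate 2 of the control cells in adipogenic medium stood apart from its group: its mean correlation of log2(FPKM + 1) over 12871 genes was 0.941 with the other 2 control adipogenic libraries 0.967 with the Chd7-deficient adipogenic libraries, 0.981 with the control osteogenic and 0.984 with the Chd7-deficient osteogenic libraries. Whether this library carries the wrong label or responded less to the medium was not tested, and it enters every control adipogenic mean below. The results for the complement genes and macrophage markers in which it took part are therefore also given without it. The targeted gene, Chd7, a chromatin remodeller, read 2.64, 2.67 and 2.77 FPKM in control and 2.03, 2.35 and 2.28 FPKM in Chd7-deficient cells after osteogenic induction, and 2.26, 1.81 and 2.23 FPKM against 2.03, 2.35 and 2.48 FPKM after adipogenic induction. The deletion removes only exon 2, so a value over the whole gene does not check it. Macrophage genes were high in every group: Lyz2, encoding lysozyme, read 3845 to 14412 FPKM, and Adgre1, encoding F4/80, read 127 to 1171 FPKM. Among genes of mesenchymal stromal cells, Col1a1 read 587 to 1073 FPKM and Thy1 at most 1.03 FPKM. Adipoq, which defines mature adipocytes, read at most 0.600 FPKM. In such bulk cultures, fewer cells of a type and less RNA per cell cannot be told apart. The files give FPKM with an unequal sum per library (295244 to 380097), and setting all sums equal moved the median log2 fold change of all genes from -0.01 to 0.14 for Chd7-deficient against control cells in adipogenic medium, from -0.00 to 0.16 for the difference of the genotype effects between media, and from 0.01 to -0.10 for the media in control cells. Under that scaling the genes called in adipogenic medium were 3264 higher and 898 lower in place of 2153 and 2123, those of the difference between media 1715 and 561 in place of 1397 and 1233, and those of the media 645 higher and 1460 lower in place of 1354 and 1581 in control cells and 1700 and 895 in place of 1785 and 1807 in Chd7-deficient cells.

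The receptors were the most abundant of the 9 genes and the alternative pathway enzymes the least. Group means ran from 142 to 217 FPKM for C3ar1 and from 99.0 to 150.1 FPKM for C5ar1. Serping1 ran from 18.1 to 65.4 FPKM, C1ra from 3.82 to 7.96 FPKM, C1s1 from 1.36 to 5.37 FPKM and C3 from 0.943 to 46.1 FPKM. C4b stayed at or below a group mean of 0.708 FPKM, Cfb at or below 0.360 FPKM and Cfd at or below 0.180 FPKM. For 8 of the 9 genes the highest mean was that of control cells in adipogenic medium, and Cfd was the exception. How many of all genes share this was not counted, so it is not a trait of complement genes. Replicates 1 and 3 of that group also had the largest sums of FPKM over all genes, 349779 and 380097, against 296464 in replicate 2. Below the control adipogenic mean, the order was Chd7-deficient adipogenic, Chd7-deficient osteogenic and control osteogenic for C1ra and Serping1. For C1s1 and C1ra the control osteogenic libraries lay wholly below the group above them, while for Serping1 the ranges of the osteogenic groups overlapped. For C3ar1 the control osteogenic mean came second, overlapping the control adipogenic range and wholly above both Chd7-deficient groups. For C3, C4b, Cfb and Cfd neighbouring groups overlapped throughout.

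**Figure D1:**
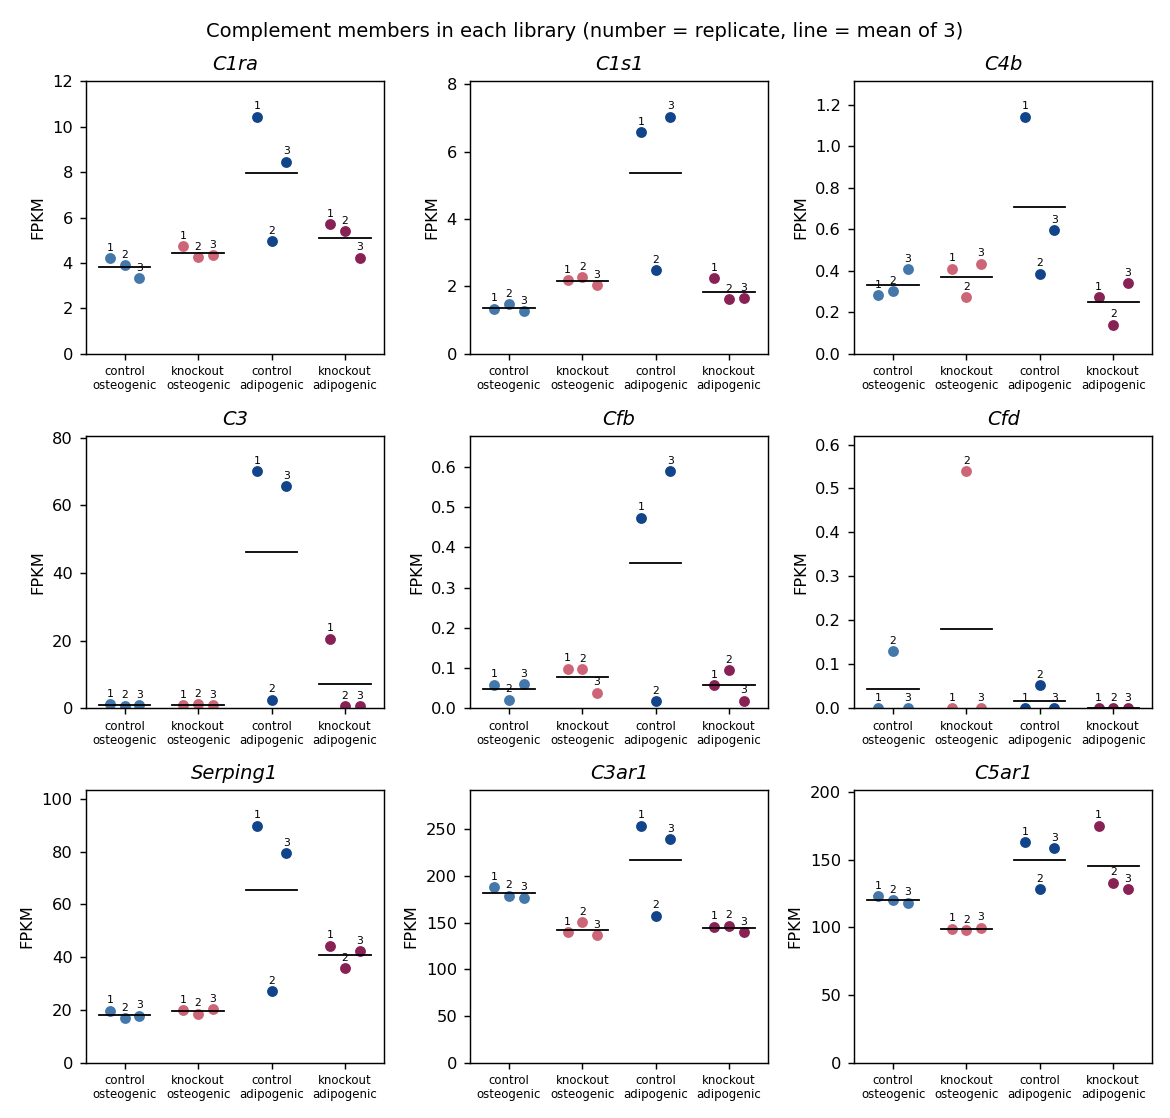
FPKM of the 9 complement genes in each of the 12 libraries, by group, each panel on its own axis from 0. Numbers beside the points give the replicate and the horizontal line is the mean of 3 libraries. In adipogenic medium control replicates 1 and 3 lie above all other libraries for C3, C1s1, C1ra, Serping1 and C3ar1, while control replicate 2 lies far below them.

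C1ra and C1s1 encode the paired proteases of the first complement complex and lie 6901 bases apart on opposite strands of chromosome 6 (GRCm38, chr6:124512405-124523443 on the plus strand and chr6:124530345-124542359 on the minus strand). C1ra read 4.22, 3.89 and 3.34 FPKM in control and 4.72, 4.25 and 4.35 FPKM in Chd7-deficient cells after osteogenic induction. After adipogenic induction it read 10.5, 4.95 and 8.47 FPKM in control and 5.70, 5.41 and 4.24 FPKM in Chd7-deficient cells. The osteogenic genotypes did not overlap but lay close together, and in adipogenic medium control replicate 2 fell inside the range of the Chd7-deficient libraries. C1s1 read 1.34, 1.48 and 1.27 FPKM in control and 2.19, 2.28 and 2.04 FPKM in Chd7-deficient cells after osteogenic induction. After adipogenic induction it read 6.57, 2.49 and 7.04 FPKM in control and 2.25, 1.63 and 1.65 FPKM in Chd7-deficient cells. For C1s1 the genotypes did not overlap in either medium, and the order was opposite: Chd7-deficient cells were above control in osteogenic and below control in adipogenic medium.

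Mice carry a second copy of each of these genes, C1rb and C1s2. For C1ra and C1rb the 250 bases before the RefSeq starts were also compared. A stretch of 99 bases that ends at the base before the RefSeq start of C1ra (GRCm38.p6, chr6:124512522-124512620, plus strand) lies 250 to 152 bases before the start of C1rb (chr6:124570180-124570278, plus strand). The 2 stretches are shown because the copies differ in level although 93 of 99 bases, 93.9%, are the same. The capitals mark the 6 bases that differ. The stretch reaches the edge of the 250 bases searched in both genes, so likeness beyond it was not examined. By the GENCODE coordinates above, the C1ra stretch lies inside the gene, and only the RefSeq start puts it in front.

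C1ra: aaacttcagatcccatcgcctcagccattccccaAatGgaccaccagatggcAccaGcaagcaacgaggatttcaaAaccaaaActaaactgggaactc
C1rb: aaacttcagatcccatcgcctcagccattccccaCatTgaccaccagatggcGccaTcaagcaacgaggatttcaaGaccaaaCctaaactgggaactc

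C1rb read at most 0.127 FPKM and C1s2 at most 0.186 FPKM, far below C1ra and C1s1 in every library. The transcripts are alike too: 35.9% of the windows of 100 bases in C1ra also occur in another gene, nearly all of them in C1rb, as do 7.90% of those of C1s1 in C1s2. How fragments from such windows were assigned is not given in the sources used here, so the split between the copies is uncertain. C1s1 is also overlapped by the antisense gene Gm16567, which is listed at 0 in all libraries, and whether strand was used in counting is not given.

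C4b (chr17:34728380-34743882, minus strand) encodes the C4 that C1s cleaves. It read 0.281 to 0.407 FPKM in control and 0.272 to 0.434 FPKM in Chd7-deficient cells after osteogenic induction. In adipogenic medium it read 1.14, 0.386 and 0.596 FPKM in control and 0.271, 0.140 and 0.342 FPKM in Chd7-deficient cells, which did not overlap. These are low values: 107, 46 and 55 fragments against 29, 15 and 37. C4a, its copy 65209 bases away, read 0.129 to 0.322 FPKM, and 16.5% of the windows of 100 bases in C4b also occur in C4a, so this split is uncertain as well. In a fit with no filter on low values the log2 fold change of C4b in adipogenic medium was -0.43 (SE 0.14, adjusted p = 0.0795).

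C3 (chr17:57203970-57228136, minus strand) encodes the protein on which the pathways meet, and it varied most of the 9. After osteogenic induction it read 1.24, 0.740 and 0.880 FPKM in control and 0.942, 1.07 and 0.811 FPKM in Chd7-deficient cells. After adipogenic induction it read 70.1, 2.54 and 65.6 FPKM in control and 20.6, 0.547 and 0.665 FPKM in Chd7-deficient cells. In fragments this was 5928, 273 and 5470 in control and 1985, 53 and 65 in Chd7-deficient cells, so the differences are far beyond counting error and lie between libraries of the same group. Control replicates 1 and 3 and Chd7-deficient replicate 1 were high, and the other 3 adipogenic libraries lay within 0.547 and 2.54 FPKM.

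The 250 bases before the RefSeq start of C3 (GRCm38.p6, chr17:57228137-57228386, minus strand) are shown because they hold a match to the motif of the C/EBP factors, TTGCNNAA, in the last part of the stretch. The match is in capitals and spans bases -45 to -38, counted back from the base before the start.

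C3: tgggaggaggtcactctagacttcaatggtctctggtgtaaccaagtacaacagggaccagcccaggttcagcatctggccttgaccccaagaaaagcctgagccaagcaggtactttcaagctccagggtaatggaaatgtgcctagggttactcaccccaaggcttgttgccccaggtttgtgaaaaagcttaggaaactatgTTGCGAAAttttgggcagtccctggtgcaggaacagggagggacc

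The motif, read on both strands, was present in 9.56% of the 32851 stretches of 250 bases before the RefSeq starts of the genome, so a match is common. Among the 9 genes a RefSeq stretch was found for 6 and not for C4b, Cfb and Serping1, and the only other C/EBP match was on the minus strand of C1s1, at bases -242 to -235 of its start at position 124542359. The same stretches held no match to the interferon motif (ISRE), the glucocorticoid receptor motif (GRE), the PPAR motif (DR1) or the NF-kB motif in any of the 6 genes. These were present in 2.98%, 0.387%, 0.0335% and 7.25% of all stretches, and no match says only that these letters are not in the stretch. C3ar1 held TATAAA at bases -235 to -230, as did 12.4% of all stretches. Of the C/EBP genes, Cebpb and Cebpd, named after their values were seen, were high in the same libraries as C3. Cebpb read 172, 45.1 and 194 FPKM in control and 99.2, 39.3 and 43.3 FPKM in Chd7-deficient cells in adipogenic medium, and 34.8 to 47.2 FPKM in osteogenic medium. Cebpd read 29.3, 6.48 and 30.3 FPKM against 13.8, 7.83 and 9.38 FPKM in adipogenic medium. Neither passed the test for the genotype in adipogenic medium with all libraries (adjusted p = 0.133 and 0.204). Cebpa had the opposite pattern, with 40.7, 73.2 and 41.4 FPKM in control and 53.0, 88.6 and 89.3 FPKM in Chd7-deficient adipogenic cells (0.58, adjusted p = 0.0824). In control cells Cebpa was lower in adipogenic than in osteogenic medium, at -1.07 (SE 0.23, adjusted p = 0.0116).

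Cfb and Cfd encode factor B and factor D, the enzymes that amplify C3 cleavage in the alternative pathway. Cfb (chr17:34856374-34862518, minus strand, 85 bases from C2) read 0.474, 0.0169 and 0.590 FPKM in control cells after adipogenic induction and at most 0.0985 FPKM in the 9 libraries of the other groups. Control replicates 1 and 3 were thus high, with 22 and 27 fragments against 1 in replicate 2. Windows of 100 bases in Cfb are shared to 81.0% with the overlapping gene Gm20547, which is listed at 0 in all libraries, so its level is uncertain. Cfd (chr10:79890853-79892655, plus strand) was listed at 0 in 9 of 12 libraries. It read 0.129, 0.540 and 0.0518 FPKM in replicate 2 of control osteogenic, Chd7-deficient osteogenic and control adipogenic cells, which is 2, 9 and 1 fragments. A count of 0 still allows 3 fragments, or 0.143 to 0.185 FPKM for a transcript of 1 kilobase, counting error only.

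Serping1 (chr2:84765387-84775444, minus strand) encodes C1 inhibitor, which inactivates C1r and C1s. It read 19.7, 16.9 and 17.8 FPKM in control and 19.8, 18.6 and 20.4 FPKM in Chd7-deficient cells after osteogenic induction. After adipogenic induction it read 89.9, 27.0 and 79.4 FPKM in control and 44.3, 35.7 and 42.1 FPKM in Chd7-deficient cells. All adipogenic libraries lay above all osteogenic ones, and control replicate 2 lay below the 3 Chd7-deficient libraries while control replicates 1 and 3 lay above them.

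C3ar1 (chr6:122847138-122856161, minus strand) and C5ar1 (chr7:16246743-16259540, minus strand) encode the receptors for C3a and C5a. C3ar1 read 188, 179 and 177 FPKM in control and 139.7, 150.1 and 137 FPKM in Chd7-deficient cells after osteogenic induction, and 254, 157 and 239 FPKM against 146, 147 and 139.5 FPKM after adipogenic induction. The genotypes did not overlap in either medium, with control above Chd7-deficient cells in both. C5ar1 read 123, 120.1 and 118 FPKM in control and 99.1, 98.1 and 99.8 FPKM in Chd7-deficient cells after osteogenic induction. After adipogenic induction it read 163, 128.5 and 159 FPKM against 175, 133 and 128 FPKM. The osteogenic genotypes were clearly apart and the adipogenic ones overlapped fully, with the highest value in a Chd7-deficient library.

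Chd7-deficient cultures after adipogenic induction were compared with control cultures to ask whether the complement genes differed between the genotypes. Which cells of the cultures carried a difference was not tested. C1s1 and C3ar1 were lower in the Chd7-deficient cultures, and no tested member was higher. For C1s1 the log2 fold change on the log2(FPKM + 1) scale was -1.08 (SE 0.26, adjusted p = 0.0105, n = 3 against 3, limma). For C3ar1 it was -0.56 (SE 0.14, adjusted p = 0.0145). So 2 of the 6 tested members were lower, and 16.5% of all 12871 genes tested were lower and 16.7% higher. C3 had the widest spread, with -2.75 (SE 1.20, adjusted p = 0.104), and C1ra had -0.51 (SE 0.20, adjusted p = 0.0759). Serping1 had -0.50 (SE 0.35, adjusted p = 0.291). C5ar1 had -0.05 with a 95% interval of -0.31 to 0.21 (adjusted p = 0.775), and its sign turned to 0.14 when the sums of FPKM were set equal. The median over the 6 members was -0.53, beside -0.01 over all genes tested.

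C1s1 was called when any 1 of the 6 adipogenic libraries was left out, with -1.47 to -0.86 and an adjusted p of at most 0.0422, whereas the calls of other members depended on single libraries. Without control replicate 2, 5 of the 6 members were lower, all but C5ar1, where 26.8% of 12818 genes were lower and 24.4% higher. C3 then had -4.17 (SE 0.91, adjusted p = 0.00378), C1s1 -1.47 (SE 0.10, adjusted p = 1.84e-06), C1ra -0.78 (SE 0.12, adjusted p = 0.000501), Serping1 -1.04 (SE 0.10, adjusted p = 1.80e-05) and C3ar1 -0.77 (SE 0.05, adjusted p = 1.89e-06). Without Chd7-deficient replicate 1, C3 had -4.00 (adjusted p = 0.0220). C3ar1 missed the threshold without control replicate 1 (-0.43, adjusted p = 0.0517), control replicate 3 (-0.47, adjusted p = 0.0554) or Chd7-deficient replicate 3 (-0.54, adjusted p = 0.0515). In a fit of the 6 adipogenic libraries alone, where 1707 genes were called in either direction, no member was called. C1s1 had an adjusted p of 0.0852 and C3ar1 of 0.0976. These 2 members also had an unadjusted p under 0.05 in that fit, and 4 members did with all 12 libraries.

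Macrophage markers moved in the same libraries. The summed level of the 12 markers was 17234, 7698 and 17574 FPKM in control and 6918, 5491 and 5644 FPKM in Chd7-deficient cells in adipogenic medium, so that control replicate 2 was again the low one. Lyz2, whose values are given above, makes up a large part of this sum. Of the 12, 7 were lower and 1 was higher in Chd7-deficient cells, beside 16.5% and 16.7% of all genes. Without control replicate 2 these were 8 lower and 3 higher, beside 26.8% and 24.4%. With the 6 adipogenic libraries alone 3 were lower and 1 higher of 11 tested, where 1707 genes were called in either direction. With all libraries the higher one was Mertk, a receptor for the uptake of dying cells, at 0.49 (adjusted p = 0.00036). Among those not called Mrc1 had 0.76, Cx3cr1 0.15 and Cd68 0.01. Adgre1 read 1171, 227 and 1136 FPKM against 255, 130 and 127 FPKM, Csf1r 386, 263 and 383 FPKM against 226, 182 and 178 FPKM, and Ptprc, encoding CD45, 23.0, 11.3 and 22.4 FPKM against 9.86, 8.01 and 7.63 FPKM. S100a8, a neutrophil gene that activated macrophages can also express, read 65.8, 2.48 and 86.0 FPKM against 1.99, 1.22 and 1.82 FPKM. Other marker lists moved too. With all libraries 3 of 10 stromal genes tested were higher and 2 lower, 2 of 4 endothelial genes were higher, and both adipocyte genes tested were higher. The endothelial calls rest on low values: all 6 genes of that list summed to 3.54 to 4.38 FPKM in control and 5.99 to 7.56 FPKM in Chd7-deficient cells. The part of all these marker shifts in the complement results was not tested.

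**Figure D2:**
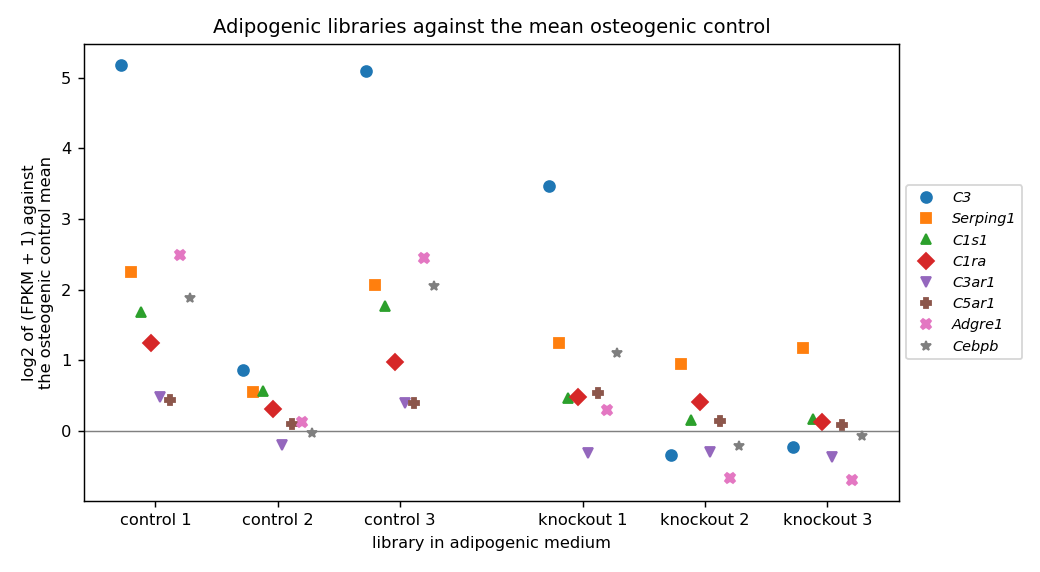
Level of 6 complement genes, the macrophage marker Adgre1 and the factor gene Cebpb in each adipogenic library, as log2 of (FPKM + 1) against the mean of the 3 control osteogenic libraries (grey line at 0). Control replicates 1 and 3 are raised for all 8 genes, and control replicate 2 lies within 1 of 0. Chd7-deficient replicate 1 is raised most for C3, is also raised for Cebpb, Serping1, C5ar1, C1s1 and C1ra, and is not raised for C3ar1.

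The same comparison of the genotypes was made after osteogenic induction. None of the 6 tested members was called by limma with all libraries, while 4.94% of all genes were higher and 4.15% lower. Unadjusted p-values under 0.05 were found for 2 members, C3ar1 with a log2 fold change of -0.35 (SE 0.14, adjusted p = 0.173) and C5ar1 with -0.28 (SE 0.12, adjusted p = 0.178), and limma with voom weights on the recovered fragments called 0. C1s1 had 0.42 (SE 0.26, adjusted p = 0.375), C1ra 0.18 (SE 0.20, adjusted p = 0.667) and Serping1 0.11 (SE 0.35, adjusted p = 0.903). For C3 the difference was -0.00 with a 95% interval of -2.67 to 2.66, so a large change of C3 in either direction was not detectable in this fit.

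The fit of all 12 libraries takes 1 estimate of the spread per gene from both media. In a fit of the 6 osteogenic libraries alone, 3 of the 5 members tested there were called, where 13.6% of 12258 genes were higher and 14.2% lower. C1s1 was higher by 0.42 (SE 0.07, adjusted p = 0.00474), C3ar1 lower at -0.35 (SE 0.04, adjusted p = 0.00189) and C5ar1 lower at -0.28 (SE 0.03, adjusted p = 0.000546). C3 was below the filter there. The summed macrophage markers, of which Lyz2 makes up a large part, were 11365 to 11824 FPKM in control and 13163 to 13415 FPKM in Chd7-deficient cells. This sum rose, while the median log2 fold change of the 12 was -0.13. In the fit of all libraries 3 of the 12 were lower and none higher, beside 4.15% and 4.94% of all genes. In the fit of the 6 osteogenic libraries 7 were lower and 2 higher, Lyz2 and Aif1. Of other markers in the fit of all libraries, 4 of 10 stromal genes tested were higher and none lower, 3 of 4 endothelial genes tested were higher, and both adipocyte genes tested were lower. The endothelial calls rest on low values: all 6 genes of that list together summed to 2.55 to 2.68 FPKM in control and 7.18 to 7.63 FPKM in Chd7-deficient cells. Csf1r, lower in both fits, read 296, 307 and 299 FPKM against 186, 187 and 188 FPKM. Pecam1, an endothelial gene, read 0.382 to 0.452 FPKM in control and 1.37 to 1.56 FPKM in Chd7-deficient cells. In this comparison it reached the filter level of 1 FPKM only in the Chd7-deficient group. The part of these markers in the values of the members was not tested.

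**Figure D3:**
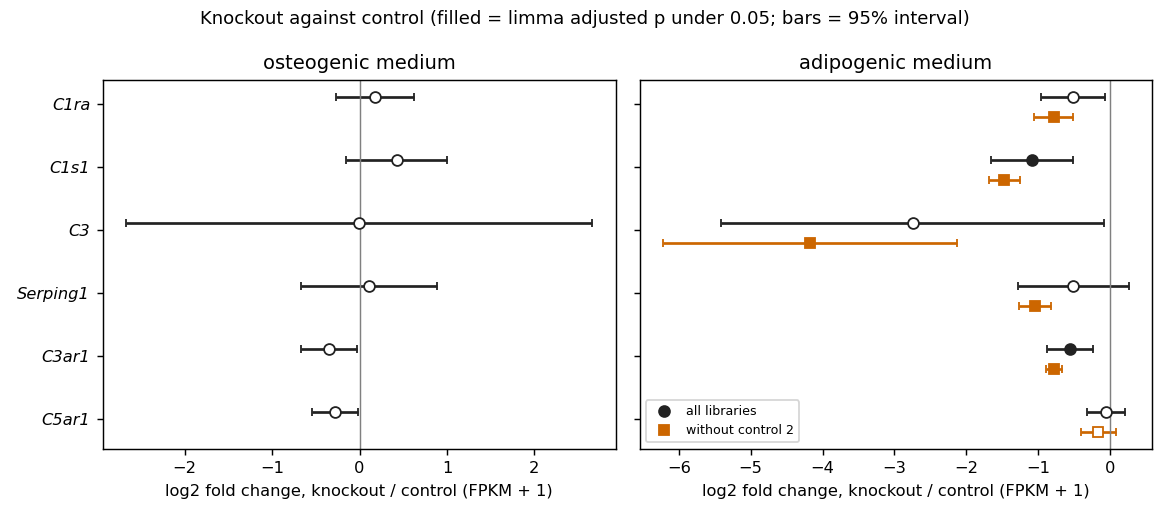
Log2 fold change of Chd7-deficient against control cells for the 6 tested members in osteogenic (left) and adipogenic medium (right), with 95% intervals, on different horizontal axes. Circles are fits of all libraries, orange squares leave out control adipogenic replicate 2, and filled symbols have an adjusted p under 0.05. C1s1 and C3ar1 are filled with all libraries in adipogenic medium, and all but C5ar1 are filled without replicate 2.

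Whether the genotype effect differed between the media was tested as an interaction. It differed for C1s1, by -1.50 on the log2 scale (SE 0.36, adjusted p = 0.0173), the adipogenic effect minus the osteogenic effect. This was 1 of 6 members, where 9.58% of all genes had a negative and 10.9% a positive difference. C1s1 stayed past the threshold when any of the 12 libraries was left out, with -1.89 to -1.29. C3 had -2.74 (SE 1.69, adjusted p = 0.276), C1ra -0.69 (SE 0.28, adjusted p = 0.116), Serping1 -0.61 (SE 0.49, adjusted p = 0.406), C3ar1 -0.21 (SE 0.20, adjusted p = 0.495) and C5ar1 0.23 (SE 0.16, adjusted p = 0.347). Without control adipogenic replicate 2, all but C5ar1 had a negative difference past the threshold, 5 of 6, where 22.5% of all genes did. C3 was then at -4.17 (adjusted p = 0.0211) and C3ar1 at -0.42 (adjusted p = 0.000857).

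In control cells, 4 members were higher in adipogenic than in osteogenic medium, where 10.5% of all genes were higher and 12.3% lower. C1s1 rose by 1.34 (SE 0.26, adjusted p = 0.00731), Serping1 by 1.63 (SE 0.35, adjusted p = 0.0111), C1ra by 0.85 (SE 0.20, adjusted p = 0.0160) and C3 by 3.72 (SE 1.20, adjusted p = 0.0492). C3ar1 had 0.23 (SE 0.14, adjusted p = 0.270) and C5ar1 0.31 (SE 0.12, adjusted p = 0.0827). C3 was just inside the threshold: it missed it when any control library but adipogenic replicate 2 was left out (adjusted p = 0.106, 0.122 and 0.111 without osteogenic replicates 1, 2 and 3, and 0.169 and 0.166 without adipogenic replicates 1 and 3). C1ra missed it without osteogenic replicate 3, adipogenic replicate 1 or adipogenic replicate 3 (adjusted p = 0.0579, 0.0522 and 0.0609). Without adipogenic replicate 2 all 6 members were higher, where 24.6% of genes were, with C3 at 5.15 (adjusted p = 0.00118), C3ar1 at 0.44 (adjusted p = 7.84e-05) and C5ar1 at 0.41 (adjusted p = 0.00984). The 6 control libraries alone gave 0 calls among the members in limma, where 527 genes were called in either direction. An unadjusted p under 0.05 was found there for 5 members (0.0205 for C3 and 0.00667 for C1s1). Voom on all libraries gave 3 calls.

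In Chd7-deficient cells, C5ar1 was the 1 member that was higher in adipogenic medium, by 0.54 (SE 0.12, adjusted p = 0.00706), where 13.9% of all genes were higher and 14.0% lower. Serping1 had 1.01 (SE 0.35, adjusted p = 0.0540) and was called in the fit of the 6 Chd7-deficient libraries alone (adjusted p = 0.000289). C3 had 0.98 (SE 1.20, adjusted p = 0.589), which rested on replicate 1 and was -0.27 without it. C1s1 had -0.16 (SE 0.26), C1ra 0.16 (SE 0.20) and C3ar1 0.02 (SE 0.14), none of them called. These media comparisons share libraries with the genotype comparisons above, so their values are not independent of each other.

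The other genes of the pathway were taken from a list of 53 complement genes that includes the members, of which 26 were tested. In adipogenic medium 7 of the 26 were higher and 5 lower in Chd7-deficient cells, beside 16.7% and 16.5% of all genes, with a median log2 fold change of 0.09 beside -0.01 over all genes. Of the C1q chains, C1qa and C1qb were higher and C1qc was not called. C1qa read 524, 407 and 396 FPKM in control and 719, 682 and 693 FPKM in Chd7-deficient cells (0.67, SE 0.09, adjusted p = 0.000518), and C1qb was higher by 0.36 (SE 0.08, adjusted p = 0.00709). In the lectin pathway Masp1, encoding a protease that activates MASP-2, read 4.77 to 6.34 FPKM in control and up to 12.4 FPKM in Chd7-deficient cells, with no overlap (1.00, SE 0.08, adjusted p = 2.25e-05). Fcna, encoding ficolin A, was higher by 0.63 (SE 0.17, adjusted p = 0.0173).

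Properdin, which stabilizes the alternative pathway convertase and is encoded by Cfp, had the largest change among the 12 of the 26 called for the genotype in adipogenic medium with all libraries. Cfp read 349.6, 138 and 328 FPKM in control and 64.7, 45.6 and 43.0 FPKM in Chd7-deficient cells in adipogenic medium, with no overlap (-2.30, SE 0.30, adjusted p = 0.000373). In osteogenic medium it read 112, 119 and 119 FPKM against 150.5, 146 and 142 FPKM, which was not called with all libraries (0.32, SE 0.30, adjusted p = 0.582) and was higher with the 6 osteogenic libraries alone (adjusted p = 0.00114). Its interaction was -2.62 (SE 0.42, adjusted p = 0.00220), and -3.05 without control adipogenic replicate 2. Of the integrin chains of complement receptor 3, Itgam fell by 1.53 (SE 0.34, adjusted p = 0.00696) and Itgb2 by 0.94 (SE 0.10, adjusted p = 0.000124) on the log2 scale in adipogenic medium. Both are also carried widely by myeloid cells. Vsig4, a receptor of tissue macrophages for C3 fragments, was higher by 0.94 (SE 0.14, adjusted p = 0.000829), the regulator Cd59a by 0.50 (SE 0.08, adjusted p = 0.00160) and C1qbp, a C1q-binding protein found mostly in mitochondria, by 0.34 (SE 0.07, adjusted p = 0.00709). Cd55, encoding decay-accelerating factor, was not called but had the library pattern of C3, with 42.7, 1.38 and 35.5 FPKM in control and 9.35, 2.09 and 1.68 FPKM in Chd7-deficient cells, and was chosen after its values were seen.

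Without control replicate 2, 13 of the 26 were higher and 10 lower in adipogenic medium, beside 24.4% and 26.8% of all genes, and all 12 genes called with it were called the same way. In the fit of the 6 adipogenic libraries alone 4 were higher (C1qa, Masp1, Cd59a and Vsig4) and 2 lower (Cfp and Itgb2). There 1707 genes were called in either direction. In osteogenic medium, where 4.94% of all genes were higher and 4.15% lower, 2 of the 26 were higher, C1qa by 0.43 (SE 0.09, adjusted p = 0.0181) and Vsig4 by 0.88 (SE 0.14, adjusted p = 0.00418), and 1 was lower, C1qb at -0.34 (SE 0.08, adjusted p = 0.0242). C1qb thus had opposite signs in the media, and its interaction of 0.70 (SE 0.11) passed the test (adjusted p = 0.00213) and was 0.78 without control adipogenic replicate 2. The 6 osteogenic libraries alone gave 8 higher and 9 lower of 25 tested, where 13.6% of 12258 genes were higher and 14.2% lower.

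**Figure D4:**
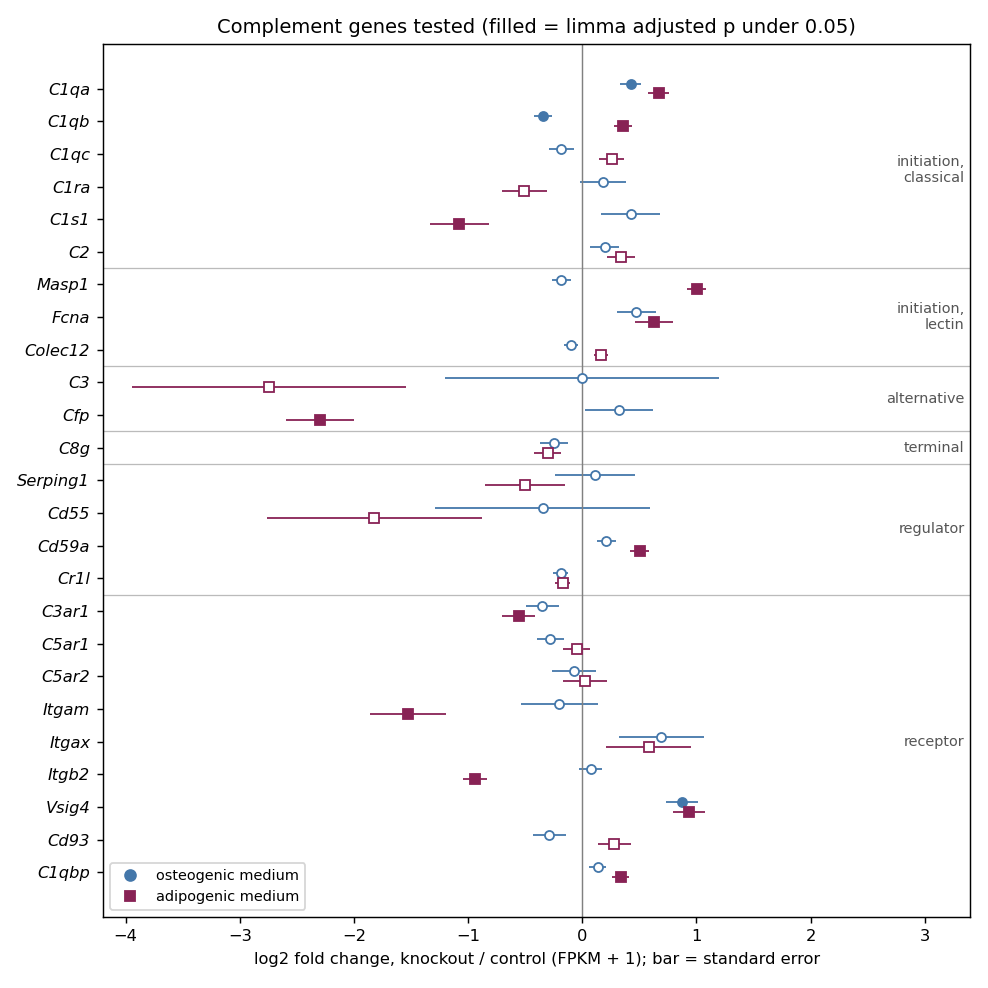
Log2 fold change with standard error of Chd7-deficient against control cells for 25 of the 26 complement genes tested, grouped by role, in osteogenic (blue circles) and adipogenic medium (purple squares), all libraries. Filled symbols have an adjusted p under 0.05. Cfp, Itgam, C1s1, Itgb2 and C3ar1 are filled on the left in adipogenic medium, and C3 and Cd55 have the widest errors.

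The medium alone changed other complement genes. In control cells 5 of the 26 were higher in adipogenic medium, the 4 members and Cfp (1.10, SE 0.30, adjusted p = 0.0267), and 11 were lower, among them C1qa, C1qb, C1qc, Masp1, Fcna, C5ar2, Itgax and Vsig4. These counts stood beside 10.5% and 12.3% of all genes. Without control adipogenic replicate 2 they were 10 higher and 13 lower. In that fit 24.6% of 12818 genes were higher, and the share that was lower is not reported here. With the 6 control libraries alone the complement genes were 0 higher and 3 lower (C1qb, C1qc and Vsig4), where 527 genes were called in either direction. C1qc was at -0.81 (SE 0.11, adjusted p = 0.00131), and Itgax, an integrin chain of complement receptor 4, was at -1.38 (SE 0.37, adjusted p = 0.0264). In Chd7-deficient cells, where 13.9% of all genes were higher and 14.0% lower, 3 were higher, Masp1, Cd59a and C5ar1, and 9 were lower, among them C1qc, Fcna, Cfp, C5ar2, Itgax, Itgb2 and Vsig4. Masp1 and Cfp therefore had opposite signs in the genotypes, with -0.41 and 0.77 for Masp1 and 1.10 and -1.52 for Cfp, and the interaction of Masp1 was 1.18 (SE 0.11, adjusted p = 0.000119), and 1.28 without control adipogenic replicate 2. The terminal components that form the membrane pore were nearly silent. C7 and C8b were listed at 0 in all libraries, and of the 7 terminal genes only C8g, at 0.711 to 2.23 FPKM, was tested.

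The transcription factors whose motifs were searched were tested as a list of 10. In adipogenic medium 4 were lower and 0 higher in Chd7-deficient cells, beside 16.5% and 16.7% of all genes. Among the 4 were Irf1 (-0.65, SE 0.21, adjusted p = 0.0388), Irf8 (-0.46, SE 0.07, adjusted p = 0.000662) and Nr3c1, the glucocorticoid receptor (-0.32, SE 0.06, adjusted p = 0.00217). Without control replicate 2, Irf1 had -0.85, Irf8 -0.51 and Nr3c1 -0.34, all 3 still called, where 26.8% of all genes were lower. In osteogenic medium 0 of the 10 were called by limma, where 4.94% of all genes were higher and 4.15% lower. Only Irf8 had an unadjusted p under 0.05, with a log2 fold change of -0.18 (SE 0.07, adjusted p = 0.134).

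Genes whose log2(FPKM + 1) followed each member most closely over the 12 libraries were found by Pearson's r, as a description, since the libraries share groups and scaling. C3 was followed by Tnip3 (r = 0.998), Tnip1 (0.997) and Gpr84 (0.997), of which Tnip1 read 83.7, 18.5 and 75.3 FPKM in control and 43.5, 13.5 and 12.0 FPKM in Chd7-deficient adipogenic cells. C1s1 was followed by Actb (0.993), Dnaja1 (0.985) and Plaur (0.984), and C1ra by Spaca6 (0.973), Wdr1 (0.966) and Adamts7 (0.965). Serping1 was followed by Snai1 (0.981), Gys1 (0.981) and Adprh (0.980). C3ar1 was followed by Milr1 (0.984), Sgk3 (0.979) and Secisbp2l (0.978), and C5ar1 by Mcl1 (0.968), Ptx3 (0.957) and Ccz1 (0.952). Among the low genes, C4b was followed by Sik3 (0.947), Rpn2 (0.936) and Tent4a (0.920), Cfb by Gm49759 (0.978), Tarm1 (0.977) and Ssr3 (0.973), and Cfd, listed at 0 in most libraries, by Gm27361 (0.804), Snapin (0.775) and 1700008B11Rik (0.762). Between the members themselves, r was 0.927 for C1ra and C1s1, 0.903 for C3 and C1ra, 0.895 for C3 and C1s1 and 0.539 for C3ar1 and C5ar1, over the same 12 libraries. Ptx3, encoding a soluble pattern recognition protein that binds C1q, read 105, 23.3 and 107 FPKM in control and 135, 52.2 and 51.5 FPKM in Chd7-deficient cells in adipogenic medium, with group means of 17.2 and 10.5 FPKM in osteogenic medium.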

How the data were processed

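RNA-seq was done on 12 libraries in 4 groups of 3. The authors deposited 1 table of FPKM values for 54532 Ensembl gene identifiers, of which 54409 matched a symbol. The study's methods name HISAT2 and Ballgown, while the submitters' processing notes name Bowtie 0.12.2 and mm9. The annotation, the use of strand and the handling of fragments that fit several genes are not given in the sources used here. The table holds no coordinates: those printed are from GENCODE M21 (GRCm38), and the stretches before gene starts are from RefSeq (GRCm38.p6).

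FPKM multiplied by the GENCODE exonic length gave whole fragments (within 0.02) for 98.2 to 98.4% of low values, where 4% is the share by chance, and so the depth. The value of 1 fragment was fitted on the same low values, and high counts were not checked in this way. Genes with at least 1 FPKM in at least 3 libraries (12871) were tested on log2(FPKM + 1) with limma 3.58.1 in R 4.3.3, with a mean-variance trend and 1 mean per group over all 12 libraries. Tests were two-sided, p-values were adjusted by Benjamini-Hochberg over all genes tested, and 0.05 was the threshold. A fold change on this scale understates the change of low genes. The code was tested on simulated data. Alternatives were a pseudocount of 0.1, no filter, equal sums of FPKM, median ratio scaling, no trend, a replicate block, voom on the recovered fragments, only the 6 libraries compared, and each library left out.

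The members, gene lists and tests were chosen with earlier results of these data known. Genes named were the members, the complement genes past the threshold in a comparison of 2 groups, the near-identical copies of members, the 3 genes most like each member, Chd7, the motif factors past the threshold and the defining cell markers. Some genes that this rule would name are not reported here.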

Additional observations from a re-analysis of the deposited data

Results flagged for a closer look

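The effect of Chd7 deficiency on C1s1, the protease of the first complement complex, differed between the media by -1.501 on the log2 scale (adipogenic minus osteogenic, limma interaction, adjusted p = 0.0173). It was 0.42 (SE 0.26) in osteogenic and -1.08 (SE 0.26) in adipogenic medium, and in each medium the 3 Chd7-deficient libraries lay on the same side of the 3 control libraries.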

How the results depend on the processing

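With groups of 3, the number of members called followed the libraries in the fit. Fitting only the 6 libraries compared gave 3 calls in place of 0 for the genotype in osteogenic medium, 0 in place of 2 in adipogenic medium, 0 in place of 4 for the media in control cells and 2 in place of 1 for the media in Chd7-deficient cells. Leaving out each library in turn gave 1 to 5 calls for the genotype in adipogenic medium, 1 to 5 for the interaction and 2 to 6 for the media in control cells. Equal sums of FPKM and the replicate block each gave 2 calls for the media in Chd7-deficient cells. Over all genes, calls for the genotype in osteogenic medium were 1170, and 526 with equal sums, 744 with the block, 3412 with 6 libraries and 522 to 662 with a library left out. In adipogenic medium they were 4276, and 1707 with 6 libraries and 2723 to 6559 with a library left out. The interaction had 2630, and 1754 to 5427 with a library left out, and the media in control cells 2935, and 527 with 6 libraries and 1367 to 6147 with a library left out.

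Some values changed sign, not all of them near 0. C3 in osteogenic medium was 0.003843 with a pseudocount of 0.1, 0.007322 with voom and -0.08252 to 0.1008 with a library left out. C5ar1 for the genotype in adipogenic medium was 0.1377 with equal sums and -0.1902 to 0.03459 with a library left out. For the media in Chd7-deficient cells, leaving out a library gave -0.2735 to 1.627 for C3, which was 0.9757 with all libraries. For C3ar1 it gave -0.009018 to 0.05858. Of 448 values of single members under the alternatives, 399 kept direction and side of the threshold, 21 lost it, 18 gained it and 10 changed sign. The cause was not tested.

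Replicate numbers are shared between genotypes, but the deviations of same-numbered libraries correlated by -0.038, 0.058 and -0.030 in osteogenic and 0.466, 0.397 and -0.286 in adipogenic medium, so the numbers were not taken as pairs. With the replicate block C3 in adipogenic medium passed the test (-2.75, adjusted p = 0.0370), as did C5ar1 for the media in control cells (0.31, adjusted p = 0.0463) and Serping1 in Chd7-deficient cells (1.01, adjusted p = 0.0356). The best match was the same number for replicate 2 alone in osteogenic and for replicates 1 and 2 in adipogenic medium. Depth limited C4b, Cfb and Cfd, which rested on at most 107 fragments per library. C1s1 was also low in osteogenic medium, with 76, 78 and 70 fragments in control and 123, 129 and 116 in Chd7-deficient cells. C3 had 64 to 116 fragments in the osteogenic libraries.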
